A study of Mus musculus with 6 samples.

Results

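The integrin and laminin genes were examined in satellite cells (SCs, the stem cells of skeletal muscle) of WT and *Ltf*-KO mice after 4 days of growth in vitro. They were picked by gene name, as every integrin α or β subunit gene and every laminin α, β or γ chain gene of the deposited table, which gave 38 of 55416 genes, namely 27 integrins (18 α and 9 β) and 11 laminins. *Ltf*-KO mice lack lactoferrin in every tissue, since a block of early exons was removed in C57/BL6N zygotes with CRISPR-Cas9, and the strain of the WT mice is not given in the sources used here. Cells of digested hind leg muscle were sorted as Sca1-/CD11b-/CD34+/α7-integrin+, plated on Matrigel and grown without further treatment in medium with serum, chick embryo extract and basic FGF. The methods list antibodies to CD31, CD45, Sca1 and α7-integrin, and none to the CD11b and CD34 of this gate. Each genotype gave 3 libraries, and nothing states whether these came from separate mice, so p-values measure only the spread between these libraries. The values are TPM, a unit that divides reads by gene length and scales every library to one total, so levels can be compared between genes while sequencing depth is not known.

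Integrins are receptors made of 1 α and 1 β subunit that hold cells to the extracellular matrix, and laminins are trimers of 1 α, 1 β and 1 γ chain that form the backbone of basement membranes. An SC lies between the muscle fiber and the basement membrane around it, and α7β1 is the integrin through which muscle cells bind laminin. The Matrigel coat of the plates is itself a basement membrane extract rich in laminin, so the laminin around the cultured cells is not only what their own RNA encodes.

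The libraries summed to between 993650 and 994356 TPM and held 12828 to 12951 genes at 1 TPM or more. *Ltf* was near the floor in both genotypes (at most 0.12 TPM in any library), so its level did not check the labels. Myogenic markers were high in all libraries (*Myod1* 747.62 to 815.74 TPM, *Pax7* 36.62 to 43.3 TPM). Of the genes behind the gate, *Itga7* was at 370.57 to 415.56 TPM, *Cd34* at 4.41 to 6.2 TPM, *Ly6a* (Sca1) at 1.33 to 3.21 TPM and *Itgam* (CD11b) at 0 to 0.07 TPM. *Ly6a*, whose protein was sorted against, was thus detected in every library, below *Cd34*. *Pecam1* (CD31), whose protein was stained, was also detected in every library, at 1.02 to 2.71 TPM, and *Ptprc* (CD45) was at 0 to 0.16 TPM. By the stated gate, cells of both genotypes were chosen on the α7 and CD11b proteins before culture, so a high *Itga7* and a low *Itgam* are no finding. The part of the sort in these levels was not tested. Platelet markers summed to 0.19 to 0.54 TPM and epithelial markers to 0.38 to 1.64 TPM per library, and each of these 8 genes averaged under 1 TPM, with the platelet gene *Pf4* at 0 throughout.

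Most of the integrin and laminin RNA came from a few genes. Of the 38 genes, 21 averaged 1 TPM or more across the 6 libraries (13 integrins and 8 laminins) and 17 did not. The 4 genes of the β1-paired laminin receptors, *Itga3*, *Itga6*, *Itga7* and *Itgb1*, held 65.5% to 69.2% of the summed TPM of all 38 genes in each library, and the 17 low genes together held 0.241% to 0.444%. The order of the levels began with *Itgb1* (mean 392.3 TPM) and *Itga7* (384.1 TPM), which did not differ beyond their spread, since *Itgb1* was the higher in 4 of 6 libraries. Below them came *Itga6* (156.7 TPM) and *Lamb1* (114.7 TPM), each with a range apart from its neighbours. *Lamc1* (71.7 TPM) and *Itgb4* (68.3 TPM) overlapped, and so did *Itga5* (42.3 TPM) and *Itgav* (37.8 TPM). From *Itga3* (27.9 TPM) down to *Lamb3* (13.9 TPM), every gene overlapped its neighbour in range. *Itgb6*, at 4.29 TPM, opened the group of low genes.

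**Figure D1:**
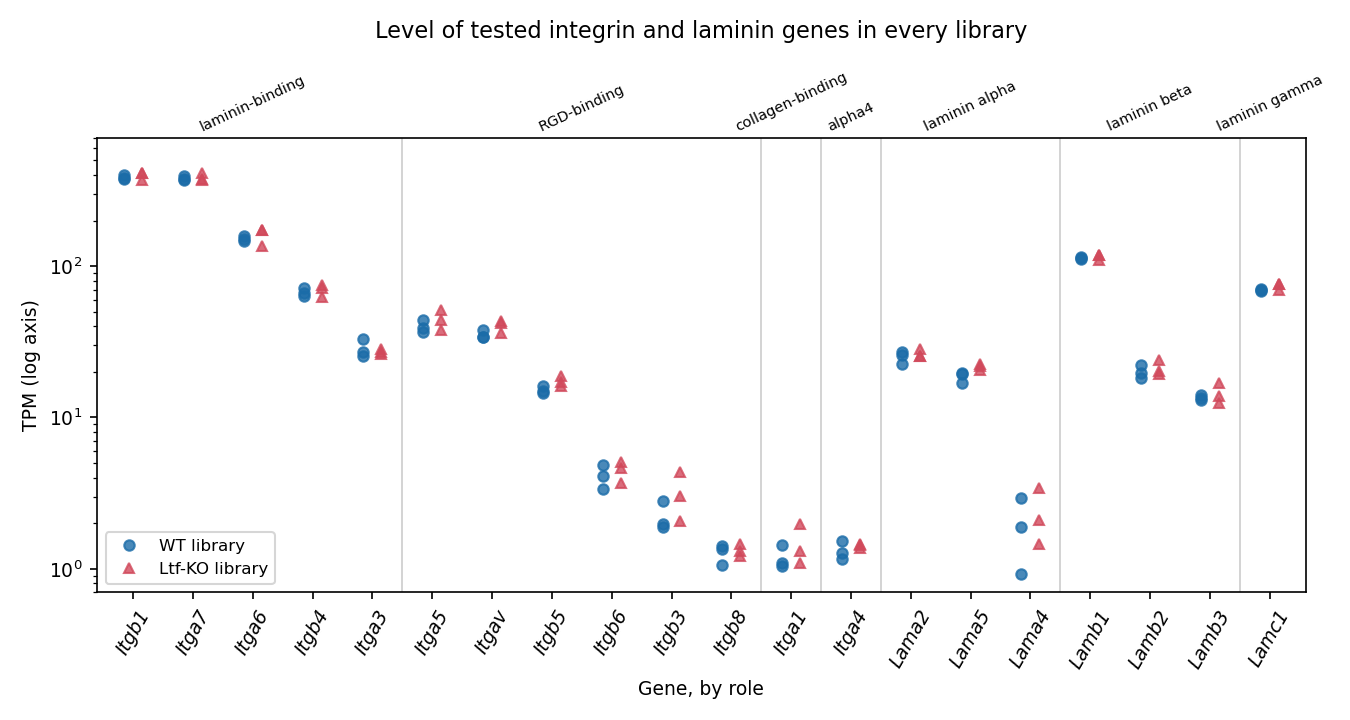
Level of integrin and laminin genes that averaged 1 TPM or more, in TPM on a log axis, with 1 circle for each WT library and 1 triangle for each Ltf-KO library, grouped by role. Itgb1 and Itga7 stand highest, near 400 TPM, and the circles and triangles overlap in every gene drawn apart from Lama5 and Itgb5.

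*Itgb1*, which encodes the β1 subunit shared by most integrins of these cells, was at 375.13, 380.67 and 399.14 TPM in WT and at 411.13, 414.57 and 373.1 TPM in *Ltf*-KO libraries. *Ltf*-KO replicate 3 was the lowest of all 6 and the other *Ltf*-KO libraries were the highest, so the genotypes overlapped. β1 RNA made up 80.1% to 81.9% of all β subunit TPM in each library. Measured against the summed TPM of the α subunits that pair with β1 (*Itga1* to *Itga11* and *Itgav*), its ratio was 0.600 ± 0.027 (SD, n = 3) in WT and 0.600 ± 0.0575 (SD, n = 3) in *Ltf*-KO SCs.

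*Itga7* was at 374.01, 395.38 and 371.38 TPM in WT and at 377.63, 370.57 and 415.56 TPM in *Ltf*-KO libraries. The lowest and the highest value were both from *Ltf*-KO, and the 95% interval of the fold change ran from 0.934 to 1.11. *Myog*, a gene of differentiating myoblasts, was also highest in *Ltf*-KO replicate 3 (507.77 TPM) and lowest in *Ltf*-KO replicate 2 (266.24 TPM), and its part in the *Itga7* values was not tested. The other laminin-binding α subunits were lower. *Itga6* was at 152.23, 159.29 and 146.92 TPM in WT and at 173.33, 136.27 and 172 TPM in *Ltf*-KO libraries. Replicate 2 of *Ltf*-KO lay below all WT libraries and the other 2 lay above them. Without *Ltf*-KO replicate 2 the log2 fold change of *Itga6* was 0.18 (unadjusted p = 0.0102), against 0.06 (unadjusted p = 0.538) with all libraries. In that fit 4.11% of all tested genes had an unadjusted p under 0.05. In the other fits lacking 1 library the unadjusted p of *Itga6* was 0.450 to 0.974. *Itga3* was at 33.1, 25.47 and 26.96 TPM in WT and at 27.22, 28.51 and 26.13 TPM in *Ltf*-KO libraries, which overlapped.

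The division of RNA among these 3 α subunits was steady. *Itga7* took 65.3% to 69.2% of their sum, *Itga6* 25.4% to 30.0% and *Itga3* 4.26% to 5.92%. The *Itga7* share was 67.7% ± 0.731 (SD, n = 3) in WT and 67.4% ± 1.97 (SD, n = 3) in *Ltf*-KO SCs (two-sided exact permutation p = 0.8). Summed, they came to 561.6 ± 17.6 TPM in WT (SD, n = 3) and 575.7 ± 39.2 TPM in *Ltf*-KO SCs (SD, n = 3) (two-sided exact permutation p = 0.7). With 3 libraries against 3 this test cannot go below 0.1.

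*Itgb4* encodes β4, a subunit that pairs with α6 and is best known from the hemidesmosomes of epithelia. It was at 71.34, 66.19 and 63.3 TPM in WT and at 75.26, 71.64 and 62.13 TPM in *Ltf*-KO libraries. It was thus the second most abundant β subunit, at 13.0% to 15.2% of β TPM, in libraries where the epithelial markers *Epcam*, *Cdh1*, *Krt5* and *Krt14* were each under 1 TPM.

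**Figure D2:**
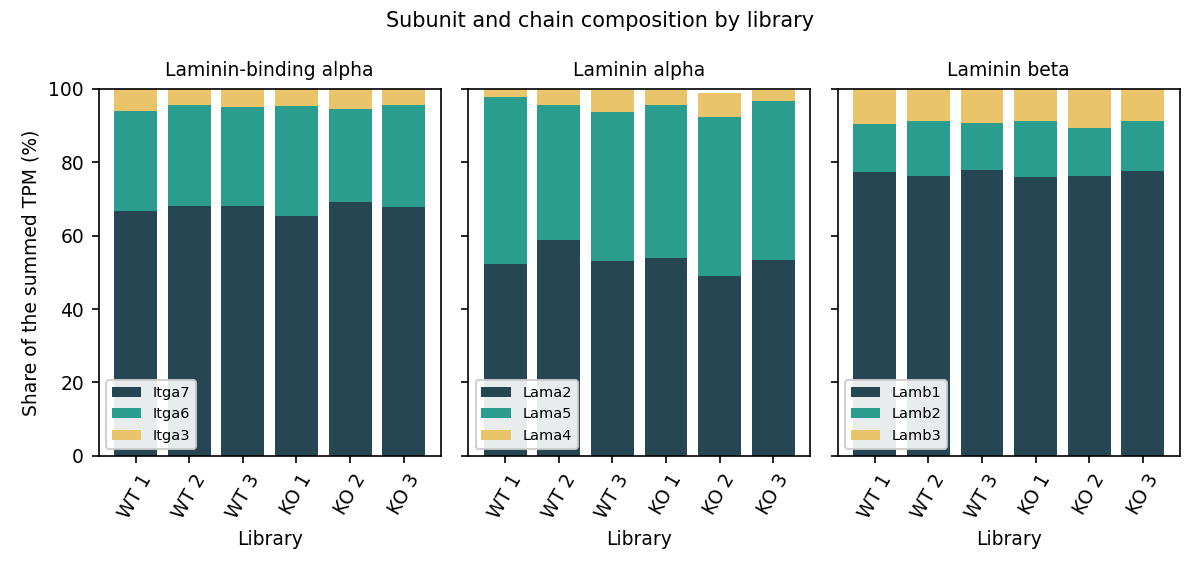
Share, in percent of the summed TPM, of each α subunit among the laminin-binding α subunits and of each chain among the laminin α and β chains, with 1 stacked bar per library (KO stands for Ltf-KO). The WT and Ltf-KO bars are alike in every panel, with Itga7, Lama2 and Lamb1 the main component in turn, and the chains not drawn (Lama1, Lama3) hold the small remainder.

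Among the laminins, *Lamb1* and *Lamc1* led. *Lamb1*, the β1 chain, was at 114.65, 113.34 and 111.69 TPM in WT and at 119.07, 119.28 and 109.93 TPM in *Ltf*-KO libraries. *Lamc1*, the γ1 chain, was at 68.8, 70.57 and 69.27 TPM in WT and at 76.29, 76.12 and 69.28 TPM in *Ltf*-KO libraries. In both genes *Ltf*-KO replicates 1 and 2 were above every WT library and *Ltf*-KO replicate 3 was not. The ratio of *Lamb1* to *Lamc1* kept between 1.56 and 1.67. *Lamb1* gave 76.0% to 78.0% of β chain TPM, followed by *Lamb2* (12.7% to 15.2%), the β2 chain of synaptic and muscle laminins. *Lamb2* was at 19.67, 22.34 and 18.14 TPM in WT and at 23.8, 20.35 and 19.25 TPM in *Ltf*-KO libraries. *Lamc1* gave 82.9% to 85.7% of γ chain TPM.

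The α chains decide which receptors a laminin binds. *Lama2*, the α chain of the laminin around mature muscle fibers, and *Lama5*, an α chain of many adult basement membranes, held 48.9% to 58.9% and 36.9% to 45.3% of α chain TPM. *Lama4*, an α chain known from vessels and nerves, held 2.16% to 6.58%. *Lama2* was at 22.53, 26.99 and 25.85 TPM in WT and at 28.14, 25.51 and 25.32 TPM in *Ltf*-KO libraries, which overlapped. *Lama1* and *Lama3* were under 0.5 TPM in every library. Summed over chains, the α class was the scarcest per length, with β chains at 2.95 to 3.45 times and γ chains at 1.69 to 1.90 times the α chains.

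*Lamb3* encodes the β3 chain, which joins the α3 chain of *Lama3* in the laminin of epithelial anchoring. *Lamb3* was at 14.01, 13.1 and 13.39 TPM in WT and at 13.84, 16.81 and 12.44 TPM in *Ltf*-KO libraries. *Lama3* was at 0.04 to 0.16 TPM, so the RNA of the β3 chain was present while that of its α chain was near the floor in both genotypes.

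The low integrins are grouped here by the cells they are known from. The leukocyte subunits *Itgal*, *Itgam*, *Itgax*, *Itgad* and *Itgb2*, together with *Itgae* and *Itgb2l*, summed to 0.22 to 0.62 TPM per library. The pan-leukocyte marker *Ptprc* was at 0 to 0.16 TPM. *Itga2b*, of the platelet fibrinogen receptor, was at 0.22 to 0.87 TPM. The collagen receptors *Itga1*, *Itga2*, *Itga10* and *Itga11* summed to 2.11 to 4.24 TPM, and of these *Itga1* averaged above 1 TPM, at 1.09, 1.05 and 1.44 TPM in WT and at 1.32, 1.99 and 1.1 TPM in *Ltf*-KO libraries. *Itga4*, whose product binds VCAM-1 with β1, was at 1.16, 1.53 and 1.28 TPM in WT and at 1.45, 1.38 and 1.43 TPM in *Ltf*-KO libraries. Lower still were *Itga9* (0.27 to 1.31 TPM), *Itgb7* (0.13 to 0.51 TPM), *Itga8* (0.25 to 1.42 TPM) and *Lamc3* (0.02 to 0.13 TPM). *Itgb6* and *Itgb8* encode partners of αv that release TGF-β from its latent form. *Itgb6* was at 3.39, 4.85 and 4.12 TPM in WT and at 4.64, 3.69 and 5.08 TPM in *Ltf*-KO libraries. *Itgb8* was at 1.06, 1.36 and 1.42 TPM in WT and at 1.31, 1.46 and 1.21 TPM in *Ltf*-KO libraries, and both genes overlapped.

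Promoter sequences were set beside these levels, since the genes ranged from about 400 TPM to nearly 0 in the same cells. RefSeq windows on GRCm38.p6, from 250 bases before to 50 bases after the gene start, were at hand for 24 of the 38 genes. The 4 below are shown because they hold the most CpG dinucleotides among these genes (*Itgb1*), many (*Lamb1*), the fewest in an abundant gene (*Lama2*) and few in a gene near 0 TPM (*Itgam*). They are written 5′ to 3′ with each CpG in capitals.
Itgb1 (chr8:128685404-128685703, plus strand): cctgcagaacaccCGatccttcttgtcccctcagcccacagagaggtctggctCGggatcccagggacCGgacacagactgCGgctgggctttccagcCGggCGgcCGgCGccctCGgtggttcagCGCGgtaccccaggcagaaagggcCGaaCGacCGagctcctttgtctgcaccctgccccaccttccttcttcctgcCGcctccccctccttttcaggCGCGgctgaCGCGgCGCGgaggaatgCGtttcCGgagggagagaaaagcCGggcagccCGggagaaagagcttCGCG
Lamb1 (chr12:31265043-31265342, plus strand): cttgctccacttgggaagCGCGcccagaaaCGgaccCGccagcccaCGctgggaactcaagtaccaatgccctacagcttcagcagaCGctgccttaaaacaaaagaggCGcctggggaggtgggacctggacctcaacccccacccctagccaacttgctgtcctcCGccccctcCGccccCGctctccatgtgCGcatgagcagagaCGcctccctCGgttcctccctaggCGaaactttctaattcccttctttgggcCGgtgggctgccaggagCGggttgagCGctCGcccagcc
Lama2 (chr10:27616893-27617192, minus strand): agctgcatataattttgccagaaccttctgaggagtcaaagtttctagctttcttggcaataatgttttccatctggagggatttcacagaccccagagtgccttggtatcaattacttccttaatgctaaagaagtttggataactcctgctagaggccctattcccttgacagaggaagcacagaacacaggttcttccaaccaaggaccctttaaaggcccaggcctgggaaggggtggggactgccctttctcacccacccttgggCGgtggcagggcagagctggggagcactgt
Itgam (chr7:128062390-128062689, plus strand): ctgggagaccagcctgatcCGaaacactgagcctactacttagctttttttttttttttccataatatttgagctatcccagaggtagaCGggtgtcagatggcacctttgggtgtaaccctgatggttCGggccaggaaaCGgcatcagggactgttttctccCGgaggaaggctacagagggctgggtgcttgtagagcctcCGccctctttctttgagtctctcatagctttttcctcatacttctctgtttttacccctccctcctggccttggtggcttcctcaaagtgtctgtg

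The *Itgb1* window held 27 CpG, that of *Lamb1* 18, that of *Itgam* 6 and that of *Lama2* 1. Among the 24 genes with a window, the median was 19 CpG (1 to 27) over the 10 genes averaging 10 TPM or more. It was 12 (10 to 13) over the 4 genes from 1 to 10 TPM and 6 (2 to 23) over the 10 genes under 1 TPM. The abundant genes *Itga7*, *Itga6*, *Lamc1* and *Itgb4* had no window. Across all genes with a window, the medians were 24 CpG for 6354 genes at 10 TPM or more, 20 CpG for 3205 genes from 1 to 10 TPM and 4 CpG for 11404 genes under 1 TPM. The integrins and laminins with a window were thus ordered by level class as genes in general were. *Lama2*, *Lamb2* (4 CpG) and *Lamb3* (5 CpG) were abundant with few CpG, and *Itga8* (23 CpG) and *Itga11* (16 CpG) were low with many. These counts describe the sequence and measure neither methylation nor binding.

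**Figure D3:**
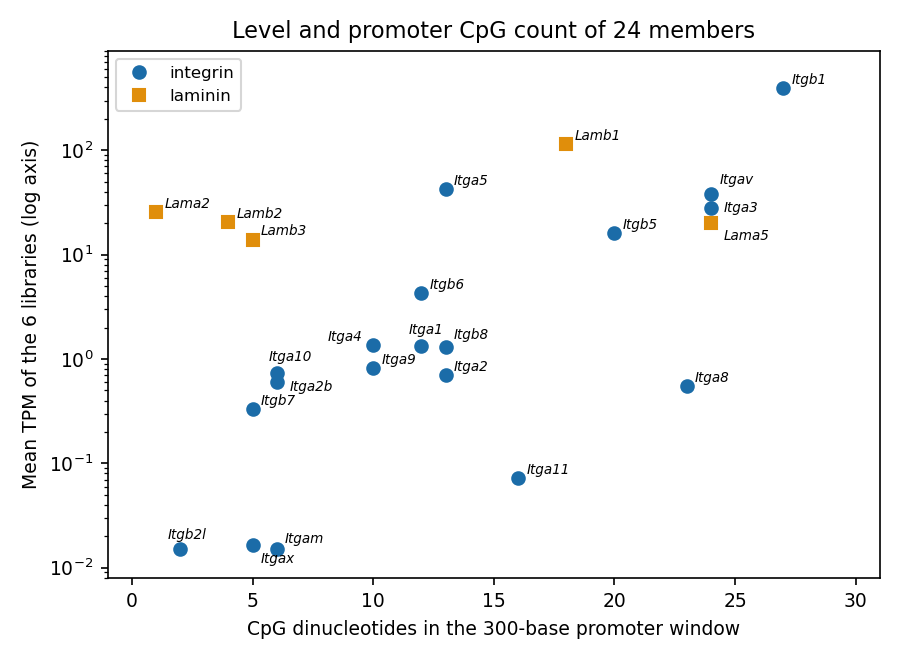
Mean TPM of the 6 libraries (log axis) against the number of CpG dinucleotides in the 300-base promoter window for the 24 genes with a window, circles for integrins and squares for laminins. Itgb1 lies at the upper right with 27 CpG, the leukocyte genes Itgam and Itgax at the lower left, and Lama2, Lamb2 and Lamb3 at the upper left.

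The genotypes were then compared by limma on log2(TPM + 1), fitted on all 12956 genes that averaged 1 TPM or more, to ask whether loss of *Ltf* moved these niche genes. On this scale the change of a low gene is understated. None of the 21 genes tested had a limma adjusted p under 0.05 (0% of all tested genes), and 3 had an unadjusted p under 0.05 (3.78% of all tested genes), namely *Lama5*, *Itgav* and *Itgb5*. All 3 were higher in *Ltf*-KO SCs, where 2.01% of all tested genes were higher at that threshold. Of the 21 genes, 19 had a log2 fold change above 0, as had 55.7% of all tested genes, and *Itga3* was among the exceptions. The count of 19 was the same with quantile normalization and with median-of-ratios scaling, and it was 16 when either WT replicate 1 or *Ltf*-KO replicate 2 was removed. The median log2 fold change was 0.07 over the 21 genes and 0.01 over all tested genes. The 21 genes are not independent of each other, so these counts are a description.

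**Figure D4:**
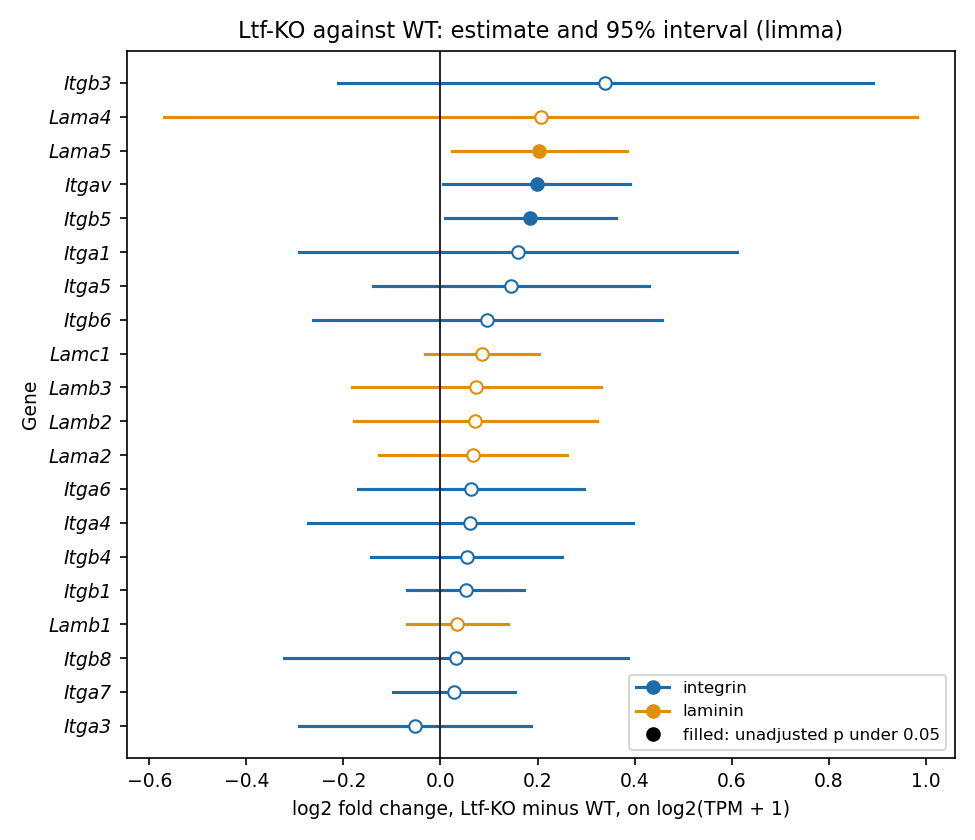
Log2 fold change of Ltf-KO against WT on the log2(TPM + 1) scale for tested integrin and laminin genes, with lines for the 95% interval from limma, integrins and laminins in different colours and filled points at an unadjusted p under 0.05. Most points lie between 0 and 0.21, and only the intervals of Lama5, Itgav and Itgb5 leave out 0.

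*Lama5* was at 19.46, 16.91 and 19.72 TPM in WT and at 21.87, 22.6 and 20.5 TPM in *Ltf*-KO libraries. All *Ltf*-KO libraries were above all WT libraries, as for 4.73% of all tested genes. The means were 18.7 ± 1.55 TPM in WT (SD, n = 3) and 21.7 ± 1.07 TPM in *Ltf*-KO (SD, n = 3), and the log2 fold change was 0.20 with a standard error of 0.0749 and a 95% interval of 0.02 to 0.38 (limma adjusted p = 0.999). The unadjusted p of 0.0318 was 0.0847 without WT replicate 2, 0.0798 without *Ltf*-KO replicate 1 and 0.0932 without *Ltf*-KO replicate 2. As a share of α chain TPM, *Lama5* overlapped between genotypes, with 40.9% ± 4.21 (SD, n = 3) in WT and 42.8% ± 0.861 (SD, n = 3) in *Ltf*-KO SCs.

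*Itgav* and *Itgb5* encode the 2 subunits of the vitronectin receptor αvβ5. *Itgav* was at 33.8, 33.86 and 37.72 TPM in WT and at 43.29, 41.87 and 36.39 TPM in *Ltf*-KO libraries. *Itgb5* was at 14.45, 14.87 and 16.04 TPM in WT and at 17.25, 18.69 and 16.09 TPM in *Ltf*-KO libraries. In both genes *Ltf*-KO replicates 1 and 2 lay above all WT libraries, and *Ltf*-KO replicate 3 lay close to WT replicate 3, just above it for *Itgb5* and below it for *Itgav*. *Itgav* averaged 35.1 ± 2.25 TPM in WT (SD, n = 3) and 40.5 ± 3.64 TPM in *Ltf*-KO (SD, n = 3), and its log2 fold change was 0.20 with a standard error of 0.0802 and a 95% interval of 0.0062 to 0.391 (limma adjusted p = 0.999). *Itgb5* averaged 15.1 ± 0.824 TPM in WT (SD, n = 3) and 17.3 ± 1.30 TPM in *Ltf*-KO (SD, n = 3), and its log2 fold change was 0.19 with a standard error of 0.0731 and a 95% interval of 0.0097 to 0.361 (limma adjusted p = 0.999). The unadjusted p of *Itgav* was 0.0448 with all libraries. It was 0.138 without *Ltf*-KO replicate 1, 0.118 without *Ltf*-KO replicate 2, 0.121 without WT replicate 1 and 0.121 without WT replicate 2. For *Itgb5* it was 0.0414 with all libraries, and 0.0856, 0.123, 0.119 and 0.101 without the same libraries. *Vtn*, which encodes vitronectin, was at 0.19 to 0.5 TPM.

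**Figure D5:**
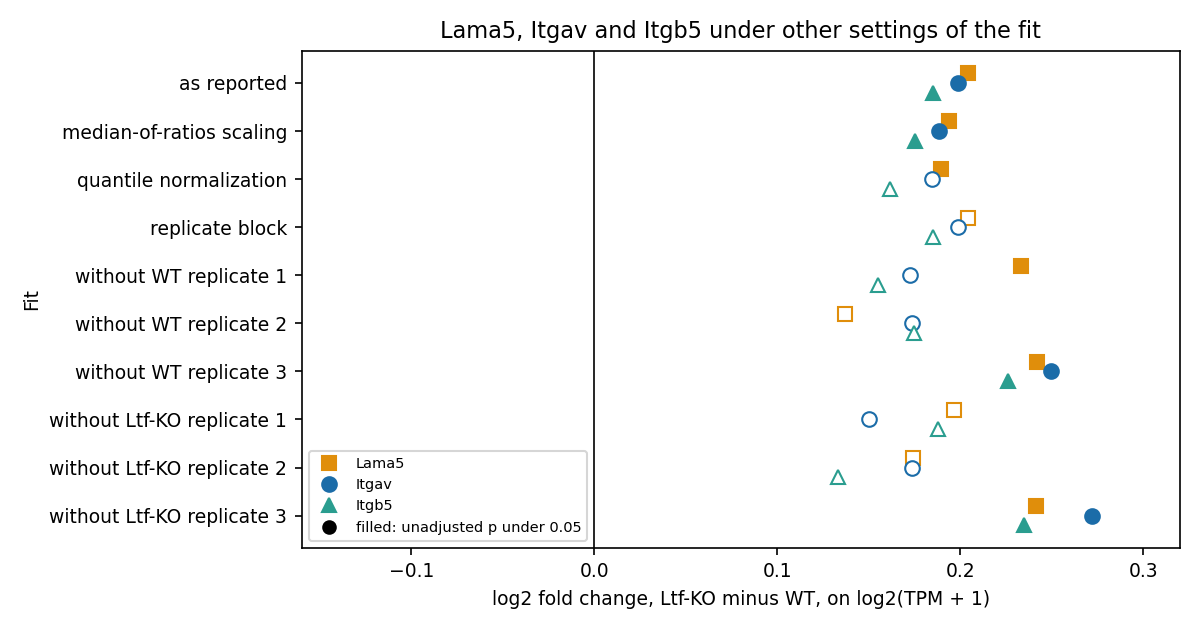
Log2 fold change of Lama5 (squares), Itgav (circles) and Itgb5 (triangles) in the fit as reported and under other scalings, with the replicate number as a block, and with each library left out, with filled points at an unadjusted p under 0.05. All points lie above 0, between 0.13 and 0.27, and each gene has open points.

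Other subunits bind the RGD motif of fibronectin and related ligands, and none of those tested had an unadjusted p under 0.05. *Itga5*, of the fibronectin receptor α5β1, was at 39.26, 36.64 and 44.23 TPM in WT and at 44.26, 51.33 and 38.12 TPM in *Ltf*-KO libraries, which overlapped. *Itgb3* was at 1.98, 1.89 and 2.82 TPM in WT and at 3.04, 4.37 and 2.07 TPM in *Ltf*-KO libraries. Again *Ltf*-KO replicates 1 and 2 were highest. Without *Ltf*-KO replicate 3, *Itgb1*, *Itgb3* and *Lamc1* also had an unadjusted p under 0.05 (0.0441, 0.039 and 0.0205), with log2 fold changes of 0.10, 0.54 and 0.13. The number of the 21 genes under this threshold was then 6, where 4.73% of all tested genes were under it. It was 0 without WT replicate 2 (3.44% of all tested genes), and also 0 without *Ltf*-KO replicate 1 (3.62%).

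Markers of other cells were read beside these values. The 9 fibroblast markers, of which 3 averaged under 1 TPM and none was at 0 throughout, summed to 117.7 to 121.6 TPM in WT and 116.2 to 155.9 TPM in *Ltf*-KO libraries. *Ltf*-KO replicates 1 and 2 were the highest in this list too, and *Col3a1*, at 88 to 117.69 TPM, made up most of each sum. All 6 tested fibroblast markers had a log2 fold change above 0 (median 0.31), as had all 10 muscle differentiation markers (median 0.15), and both medians were larger than that of the 21 integrin and laminin genes (0.07). None of these 16 markers had an unadjusted p under 0.05. *Dcn*, a fibroblast gene, was at 2.04, 2.89 and 5.24 TPM in WT and at 5.71, 6.83 and 2.82 TPM in *Ltf*-KO libraries. *Lama4*, at 0.93, 1.88 and 2.94 TPM in WT and 2.1, 3.43 and 1.45 TPM in *Ltf*-KO libraries, was highest and lowest in the same libraries as *Dcn*. The part of these cells in the differences was not tested, and in bulk RNA more cells of a type and more RNA per cell cannot be told apart. The 6 endothelial markers summed to 5.8 to 14.6 TPM in WT and 5.74 to 13.7 TPM in *Ltf*-KO libraries, and the 6 smooth muscle and pericyte markers to 454.9 to 540.4 TPM and 507.3 to 638.6 TPM. *Acta2*, at 408.79 to 593.04 TPM, made up most of each smooth muscle and pericyte sum, and *Myh11* and *Rgs5* averaged under 1 TPM. In the same list *Pdgfrb* was at 3.73, 3.89 and 4.71 TPM in WT and at 6.95, 7.51 and 4.8 TPM in *Ltf*-KO libraries, with *Ltf*-KO replicates 1 and 2 highest again. *Cspg4* was highest in these libraries too, and *Myh11* in *Ltf*-KO replicate 2 (0.62 TPM), followed by replicate 3 (0.56 TPM). The rest of the list differed, with *Acta2* (593.04 TPM) and *Rgs5* (0.46 TPM) highest in *Ltf*-KO replicate 3 and *Notch3* (9.07 TPM) in WT replicate 1. For *Pdgfrb* all *Ltf*-KO libraries were above all WT libraries, as for 4.73% of all tested genes. Its log2 fold change was 0.52 with a standard error of 0.165 and an unadjusted p of 0.0171 (limma adjusted p = 0.999), a larger difference than in *Lama5*, *Itgav* or *Itgb5*. Its part in their values was not tested. The 6 macrophage markers summed to 12.2 to 18.0 TPM and 9.86 to 12.9 TPM, the 5 neutrophil markers to 1.13 to 3.17 TPM and 0.8 to 3.39 TPM, and the 5 Schwann cell markers to 13.0 to 24.8 TPM and 14.6 to 22.1 TPM.

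Summed over genes, all 27 integrins came to 1105, 1127 and 1120 TPM in WT and 1185, 1152 and 1155 TPM in *Ltf*-KO libraries. The genotypes did not overlap, and the difference of 0.06 on the log2 scale gave a two-sided exact permutation p of 0.1, the smallest possible, and 0.6 after adjustment over the 6 sums and shares tested. The laminin α chains summed to 45.8 ± 2.81 TPM in WT (SD, n = 3) and 50.6 ± 2.81 TPM in *Ltf*-KO SCs (SD, n = 3) (two-sided exact permutation p = 0.2). The β chains summed to 146.8 ± 3.09 TPM and 151.6 ± 8.63 TPM (SD, n = 3 each, exact permutation p = 0.4), and the γ chains to 83.05 ± 1.81 TPM and 86.8 ± 4.00 TPM (SD, n = 3 each, exact permutation p = 0.3). Each class overlapped between genotypes because *Ltf*-KO replicate 3 lay within or below the WT range.

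The intervals of the other 18 tested genes all held 0, and those of the 6 genes from 1 to 10 TPM were wider than all the others. Among the abundant laminin receptor genes the log2 fold change was 0.05 for *Itgb1* (95% interval -0.07 to 0.17), 0.03 for *Itga7* (-0.10 to 0.15), 0.06 for *Itga6* (-0.17 to 0.30), 0.05 for *Itgb4* (-0.14 to 0.25) and -0.05 for *Itga3* (-0.29 to 0.19). Among the laminins it was 0.03 for *Lamb1* (-0.07 to 0.14), 0.09 for *Lamc1* (-0.03 to 0.20), 0.07 for *Lama2* (-0.13 to 0.26), 0.07 for *Lamb2* (-0.18 to 0.32) and 0.07 for *Lamb3* (-0.18 to 0.33). As folds, the interval of *Itgb1* was 0.954 to 1.13 and that of *Lamb1* 0.953 to 1.10, so larger changes of these RNAs lay outside the 95% interval. The fibronectin receptor gene *Itga5* had a log2 fold change of 0.14 (-0.14 to 0.43). The low genes had wide intervals, with 0.34 for *Itgb3* (-0.21 to 0.89), 0.21 for *Lama4* (-0.57 to 0.98), 0.16 for *Itga1* (-0.29 to 0.61), 0.10 for *Itgb6* (-0.26 to 0.46), 0.06 for *Itga4* (-0.27 to 0.40) and 0.03 for *Itgb8* (-0.32 to 0.39). For *Lama4* this spans 0.674 to 1.98 as folds of TPM + 1, within which a change could not be told from none. Folds of TPM itself would span more at this low level, and with a pseudocount of 0.1 the log2 fold change of *Lama4* was 0.32. The spread within a genotype was 3.42% to 9.89% of the mean (median 4.9%) for the 4 genes at 100 TPM or more. For the 11 genes from 10 to 100 TPM it was 4.04% to 12.8% (median 8.0%). For the 6 genes from 1 to 10 TPM it was 9.91% to 47.5% (median 21.9%). The medians for all genes at those levels were lower, at 3.8%, 6.29% and 15.8%.

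Genes that work with integrins and laminins were read from lists that covered basement membrane partners, other laminin receptors, other integrin ligands, integrin adaptors and kinases, tetraspanins, and the genes the table annotates to ECM-receptor interaction (which also holds 30 of the 38 integrins and laminins). Of 84 tested genes on these lists, 61 had a log2 fold change above 0 (55.7% of all tested genes did), and 1 had an unadjusted p under 0.05, a share below the 3.78% of all tested genes. Without *Ltf*-KO replicate 3 the count was 8, where 4.73% of all tested genes were under this threshold. The gene called with all libraries was *Rsu1*, whose product sits in the adhesion complex of integrin-linked kinase. *Rsu1* was at 122.35, 117.62 and 111.36 TPM in WT and at 105.08, 101.78 and 109.62 TPM in *Ltf*-KO libraries. All *Ltf*-KO libraries were below all WT libraries, at a log2 fold change of -0.15 with a standard error of 0.0492 (limma adjusted p = 0.999). Its unadjusted p of 0.021 was 0.0673 without WT replicate 1, 0.0566 without WT replicate 2, 0.0548 without *Ltf*-KO replicate 1 and 0.0645 without *Ltf*-KO replicate 2.

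Larger differences in these lists came with wider spread and did not reach this threshold. *Fbln2*, a basement membrane fibulin, was at 39.63, 34.53 and 54.84 TPM in WT and at 62.01, 74.11 and 45.39 TPM in *Ltf*-KO libraries (log2 fold change 0.48, unadjusted p = 0.0699). *Src*, a kinase of integrin signalling, was at 14.14, 13.76 and 14.91 TPM in WT and at 22.31, 21.23 and 13.78 TPM in *Ltf*-KO libraries (log2 fold change 0.37, unadjusted p = 0.0714). *Thbs3*, a thrombospondin, was at 5.44, 3.69 and 4.18 TPM in WT and at 2.49, 4.33 and 2.23 TPM in *Ltf*-KO libraries (log2 fold change -0.46, unadjusted p = 0.0794). The log2 fold change was also high for *Col1a1* (0.45), *Col6a3* (0.40) and *Postn* (0.31), and in each of these 6 genes the genotypes overlapped.

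By list, 13 of 14 tested basement membrane partners (such as the nidogens, perlecan and type IV collagen) had a log2 fold change above 0, with a median of 0.08 and none at an unadjusted p under 0.05. *Hspg2*, which encodes perlecan, was at 116.27, 108.45 and 109.16 TPM in WT and at 121.73, 114.64 and 114.74 TPM in *Ltf*-KO libraries, with overlap. The other integrin ligands had 10 of 12 above 0 (median 0.06), and the adaptors and kinases 20 of 27 (median 0.02). The other laminin receptors had 6 of 12 above 0 (median -0.0018) and the tetraspanins 2 of 6 (median -0.02). *Dag1*, which encodes dystroglycan, the other main laminin receptor of muscle, was at 62.71, 66.31 and 64.92 TPM in WT and at 65.1, 62.42 and 67.33 TPM in *Ltf*-KO libraries, and the genotypes overlapped. The 27 tested ECM-receptor interaction genes outside the integrins and laminins had 23 above 0 (median 0.04) and none at an unadjusted p under 0.05.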

How the data were processed

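RNA-seq libraries of 6 SC cultures (3 WT, 3 *Ltf*-KO, day 4) were grouped and numbered by the sample titles. The authors deposited TPM values, 1 column per library, made by the sequencing company's own protocol. The submitters' processing notes name GRCm39, and the aligner and annotation are not given in the sources used here. The unit was read from the column totals. All 38 gene identifiers matched GENCODE M21 names, as did 52083 of 55416 overall. RefSeq promoter windows are on GRCm38.p6 and were matched by symbol, taking the window with the most CpG where a gene had several.

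The 12956 genes averaging 1 TPM or more were fitted with limma 3.58.1 in R 4.3.3 (lmFit, eBayes with a variance trend) on log2(TPM + 1), two-sided, with Benjamini-Hochberg adjustment over all of them and a threshold of 0.05. The fit was tested on simulated data. Sums and shares were compared by exact permutation over the 6 libraries, in Python 3.11.15. The members, lists and tests were chosen with earlier results of these data known. The genes are named, apart from a result that is not reported here, those at 1 TPM or more with values or intervals, and of each list up to 6 genes at an unadjusted p under 0.05, other genes being named after their values were seen. TPM keeps no depth, so precision was judged from replicates and no count model was run. The number of genes with a log2 fold change above 0 and the overlap counts were added after seeing the data.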

Additional observations from a re-analysis of the deposited data

How the results depend on the processing

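The count of 0 genes at a limma adjusted p under 0.05 was the same under all 13 alternatives. The count of 3 at an unadjusted p under 0.05 was 1 with quantile normalization (3.92% of all tested genes), where *Lama5* was the gene left. It was 0 to 6 across the fits that each lacked 1 library, where 3.44% to 4.73% of all tested genes were under this threshold. Without a variance trend it was 2 (3.91% of all tested genes were under the threshold), since *Itgav* had an unadjusted p of 0.0624. The median log2 fold change of 0.07 lay between 0.0529 and 0.13 across those fits, the highest without *Ltf*-KO replicate 3. For the lists of related genes, the count of 1 was 2 with a pseudocount of 0.1 and 2 with no filter. It was also 2 when genes had to average 10 TPM. In these fits 3.79%, 3.35% and 3.48% of all tested genes were under the threshold. Across the fits lacking 1 library the list count was 0 to 8, against 3.44% to 4.73% of all tested genes. Of 267 refitted fold changes of single genes, 235 kept their direction and side of the threshold.

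Deviations of same-numbered libraries of the 2 genotypes correlated at -0.041, -0.058 and -0.088, so they did not deviate together. Such correlations cannot tell whether the cultures were paired by number, which the sample titles do not state. With the replicate block 0 of the 21 genes and 0 of the related genes had an unadjusted p under 0.05 (2.93% of all tested genes did), and *Lama5* stood at 0.0734.

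Across the fits lacking 1 library, the summed laminin-binding α subunits ranged from -0.013 (without *Ltf*-KO replicate 3) to 0.0855 on the log2 scale and the *Itga7* share from -1.2 to 0.758 percentage points (without *Ltf*-KO replicate 1). Log2 fold changes crossed 0 for *Itga3* (-0.127 to 0.0554), *Itga7* (-0.023 to 0.0595), *Itgb4* (-0.0031 to 0.133), *Itgb6* (-0.0092 to 0.204), *Itgb8* (-0.04 to 0.0762), *Lama2* (-0.0064 to 0.119), *Lama4* (-0.0613 to 0.454), *Lamb2* (-0.0129 to 0.149) and *Lamb3* (-0.0375 to 0.166). The count of genes whose genotypes did not overlap was 2 (8.46% of all tested genes did not, in either direction), and 2 to 9 across these fits, with 9 without *Ltf*-KO replicate 3 (19.0% of all tested genes). The cause was not tested.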

Other observations

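Some genes under the 1 TPM filter had their highest value in 1 library, *Ltf*-KO replicate 2. The epithelial markers summed highest in the same library (1.64 TPM, against 0.38 to 0.97 TPM in WT and 0.39 and 0.41 TPM in the other *Ltf*-KO libraries), with *Krt14* at 0.52 TPM, *Krt5* at 0.39 TPM and *Cdh1* at 0.6 TPM there, and their part in these values was not tested. *Itga2*, a collagen receptor subunit, was at 0.45, 0.53 and 0.72 TPM in WT and at 0.51, 1.56 and 0.42 TPM in *Ltf*-KO libraries. *Itga8*, whose product binds nephronectin, was at 0.35, 0.53 and 0.25 TPM in WT and at 0.41, 1.42 and 0.34 TPM in *Ltf*-KO libraries. *Lama1*, the main α chain of embryonic laminin, was at 0.01, 0.02 and 0.01 TPM in WT and at 0.11, 0.45 and 0.04 TPM in *Ltf*-KO libraries. Its genotypes did not overlap, as for 6.67% of all genes, in either direction, in the fit with no filter. Sequencing depth is not known for values this low, and these genes were not tested in the fit reported above. *Itga9*, a receptor for tenascin and VCAM-1, was at 0.27, 1 and 0.46 TPM in WT and at 1.31, 1.01 and 0.88 TPM in *Ltf*-KO libraries, and overlapped.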
